A study of Caenorhabditis elegans with 2 samples.

Results

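The his genes of Caenorhabditis elegans encode the histone proteins around which nuclear DNA is wrapped. All 72 protein-coding genes named his in the WBcel235 annotation were taken by name, of 19973 protein-coding genes on the 6 nuclear chromosomes. No gene was left out for its values, but the family was chosen with earlier results of these data known. The study measured where CEH-100, a homeobox protein, was found on chromatin. It did so by ChIP-seq with an anti-GFP antibody in whole young adults, 64 hours old, that had been synchronised as starved first-stage larvae after bleaching. The single strain, RW12233, carries a CRISPR insertion of TY1, EGFP and 3xFLAG at the ceh-100 gene itself (st12233), so the tagged protein is made from its own locus. There were 2 biological replicates of this 1 group and no second genotype, stage or treatment, so no comparison between conditions was possible. A peak in whole animals does not tell in which cells the protein was bound, and nothing in the peak lists separates strong binding in few cells from weak binding in many.

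Core histones H2A, H2B, H3 and H4 form the nucleosome, and linker histone H1 binds the DNA that enters and leaves it. In worms, as in other animals, most core histone genes are short, lack introns and lie in clusters of divergent gene pairs, and they are expressed mainly when DNA is replicated. Their messages end in a stem-loop bound by the protein CDL-1 rather than in a poly(A) tail, whereas H3.3 genes are expressed outside replication as well.

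By protein identity to a reference member of each type, the 72 genes comprised 17 H2A, 17 H2B, 21 H3, 16 H4 and 1 H1 gene (his-24). The H3 genes included 5 that RefSeq names H3.3 or H3.3-like. The coding sequence was a single exon in 64 genes and was interrupted by introns in the other 8. The predicted proteins of his-73 and his-39 were short, at 46 and 67 residues. The genes lay in 19 clusters or single loci, taking at most 10000 bp between neighbours as 1 cluster. Of the 72, 62 formed 31 divergent pairs, of which 16 joined H2A to H2B, 14 joined H3 to H4, and 1, his-67 with his-68, joined H4 to H2A. The starts of a pair were separated by a spacer of 227 to 368 bp, with a median of 258 bp. In 65 of the 72 genes the annotated start was that of the coding sequence. Spacers, distances and promoter windows of those genes were therefore measured from the coding start.

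The following windows show what lies at and between such starts. Each is read from the plus strand of RefSeq's WBcel235 genome and spans 50 bases on either side of its centre. Capitals mark every match, on either strand, to the 6 letter patterns whose counts are given at the end, of which these windows hold GAGAG once and the patterns CTCCNCC and TGTCCNCNCAG several times. The first is centred on a peak summit between the H2A gene his-61 and the H2B gene his-62 (chrIV:7486322-7486422). The second is centred on a summit between his-63 and his-64 (chrIV:11406947-11407047), an H3/H4 pair whose peak passed in 1 of the joint sets. The next is centred on the summit upstream of his-37, an unpaired H4 gene (chrV:9546954-9547054). Without a summit, the fourth is the centre of the spacer between his-51 and his-52 (chrV:8850267-8850367), which had no peak and which occurs 4 times in the genome. The fifth is the centre of the spacer between his-60 and his-59 (chrIV:7488070-7488170), which had no summit although peaks lay on both genes.
his-61/his-62 summit: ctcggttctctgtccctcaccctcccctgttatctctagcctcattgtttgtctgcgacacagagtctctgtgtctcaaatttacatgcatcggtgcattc
his-63/his-64 summit: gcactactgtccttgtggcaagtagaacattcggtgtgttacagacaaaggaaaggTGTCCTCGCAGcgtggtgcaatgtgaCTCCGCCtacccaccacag
his-37 summit: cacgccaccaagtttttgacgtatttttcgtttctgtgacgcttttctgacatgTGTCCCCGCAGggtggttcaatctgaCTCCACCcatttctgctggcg
his-51/his-52 spacer centre: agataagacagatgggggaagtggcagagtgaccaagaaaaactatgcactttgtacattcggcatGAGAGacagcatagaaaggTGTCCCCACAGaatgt
his-60/his-59 spacer centre: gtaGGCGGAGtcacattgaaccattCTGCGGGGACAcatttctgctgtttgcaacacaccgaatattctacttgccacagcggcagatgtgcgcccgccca

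Genes were scored by the distance of summits from their annotated starts, and 1000 bp or less from any start counted as a peak. The authors deposited 2 joint sets of peaks that passed their reproducibility threshold on the irreproducible discovery rate (IDR), called here the conservative set and the other thresholded set. They also deposited a thresholded list for each replicate and long ranked lists that were not thresholded. In the conservative set 15 of the 72 his genes had a peak, 20.8% (95% Wilson interval 13.1 to 31.6), where 7.27% of all protein-coding genes did. In the other thresholded set 18 had one, 25% (16.4 to 36.1), against 8.04% of all protein-coding genes. The intervals cover counting error only, and they are too narrow because paired genes often share a peak: the 15 genes were served by 12 distinct summits and the 18 genes by 14. The conservative count depended on the limit: it was 8 of 72 within 500 bp and 6 within 250 bp, against 5.54% and 3.55% of all protein-coding genes. It was 9 when each peak counted only for the gene of the nearest start, against 5.24%, and 8 at a global IDR of at most 0.001, against 4.97%.

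The replicates differed at these genes. In replicate 1's thresholded list 14 his genes had a peak, 19.4% (12 to 30), against 5.43% of all protein-coding genes. In replicate 2's thresholded list 8 had one, 11.1% (5.74 to 20.4), against 6.46% of all protein-coding genes. Replicate 2 therefore had fewer his genes with a peak although its list was the longer, at 1360 peaks against 1182 in replicate 1. Read counts were not used here, and the part of sequencing depth in this difference was not tested.

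The ranked lists held more peaks, and the shares of his genes and of all protein-coding genes were both higher. A ranked joint peak lay near 36 of the 72 genes, 50% (38.7 to 61.3), against 34.4% of all protein-coding genes. Replicate 1's ranked list placed a peak near 41 genes, 56.9% (45.4 to 67.7), against 46.5%. Replicate 2's placed one near 33 genes, 45.8% (34.8 to 57.3), against 36.1%. Both ranked lists held a peak near 31 of the 72 his genes, 43.1% (32.3 to 54.6), against 26.8% of all protein-coding genes. In all, 20 his genes had a peak in at least 1 thresholded list, a further 23 had one in the ranked lists only, and 29 had none in any of the 7 lists. The like shares of all protein-coding genes were not computed, so these counts do not tell whether his genes differ from other genes.

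**Figure D1:**
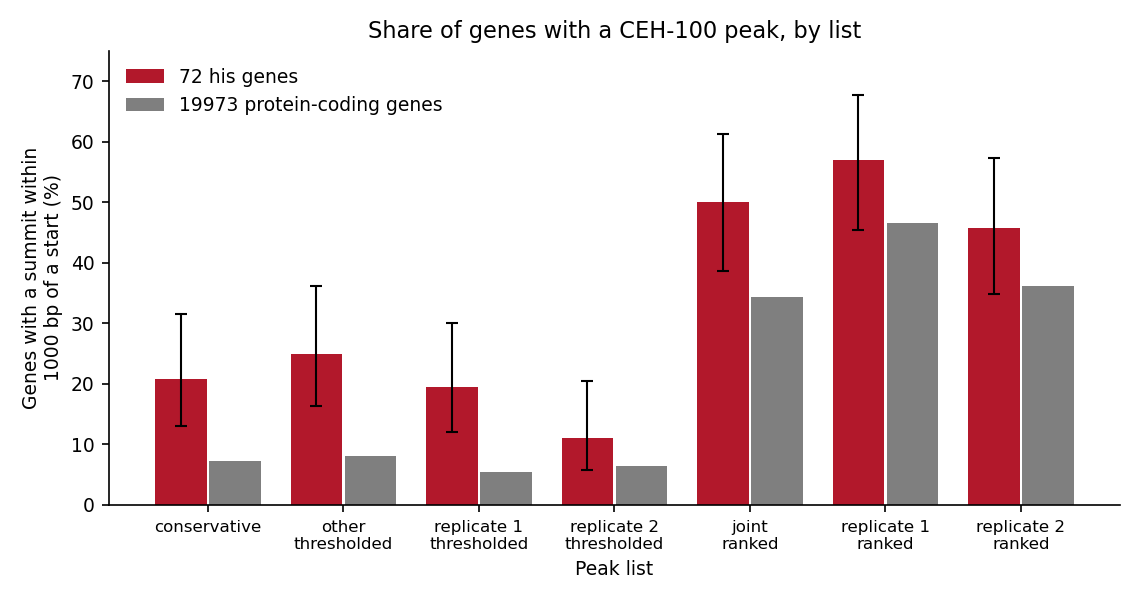
Percent of genes with a summit within 1000 bp of a start in each of the 7 peak lists, for the 72 his genes (red, left, with 95% Wilson intervals) and all 19973 protein-coding genes (grey, right). The his share lies above the grey bar in each list, and the interval spans the grey bar in replicate 2's thresholded list and in the ranked lists of both replicates.

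By histone type, a conservative peak lay near 4 of 17 H2A, 3 of 17 H2B, 4 of 21 H3 and 4 of 16 H4 genes, and near none of the 1 H1 gene. These counts are too few to order the types. Among paired genes 12 of 62 had a conservative peak, and among unpaired genes 3 of 10 did (his-37, his-42 and his-74). Beside all of these counts, the share of all protein-coding genes was 7.27%. The his-42 summit was 853 bp from its start and 58 bp from a non-coding RNA gene. That of his-74 fell on a start of the gene ccch-3.

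The peaks were of modest height. The signal, the authors' enrichment value with no unit, had a median of 105 over the 12 conservative peaks at his genes (17.3 to 264), against 134 over all 1685 nuclear conservative peaks and 140.1 over the 1169 within 1000 bp of a protein-coding start. The highest, at his-67 and his-68, ranked 331 of the 1685. Where summits rested on the same replicate peaks, keeping only the higher gave a median of 118 at his genes. The like median over all conservative peaks was not computed. By place, 2 summits lay in the spacer of a divergent pair, 2 upstream of an unpaired gene, 2 in the coding exon of a his gene, 2 in an annotated intron of his-57 and 4 past the annotated end of a his gene.

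The 2 spacer summits were at the pairs his-67/his-68 and his-61/his-62. The first lay on chromosome I at position 9988980, 152 bp upstream of the H2A gene his-68 (WBGene00001942) and 217 bp upstream of the H4 gene his-67 (WBGene00001941). Its signal was 264 in the joint list, 153 in replicate 1 and 123 in replicate 2, and it passed in both replicates' thresholded lists. The second lay on chromosome IV at 7486372, 155 bp upstream of his-61 and 173 bp upstream of his-62, with a signal of 126 in the joint list, 68.5 in replicate 1 and 59.3 in replicate 2, and it also passed in both.

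Upstream of unpaired genes, the summit at the H4 gene his-37 lay close to its start, in the window printed above (chromosome V, 9547004). Its signal was 200.5 in the joint list, 111 in replicate 1 and 100 in replicate 2, and it ranked 455. The summit assigned to the H3 gene his-42 was 853 bp upstream of it (chromosome II, 13829550), with 179 in the joint list, 98.3 in replicate 1 and 76.3 in replicate 2. A non-coding RNA gene, F08G2.15, lay 58 bp from that summit, so the peak cannot be assigned to his-42 by distance. Both peaks passed in both replicates' thresholded lists.

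Of the peaks past the end of a gene, the one at the H2A/H2B pair his-66/his-65 was the highest. It lay 147 bp past the annotated end of his-66 and 518 bp from its start (chromosome IV, 11400268), with a signal of 178 in the joint list, 73.4 in replicate 1 and 108 in replicate 2. It was 1 of 2 his peaks that were higher in replicate 2, and it passed in both thresholded lists. The peak at the H3/H4 pair his-55/his-56 lay 127 bp past the end of his-55 and 796 bp upstream of his-56, with 93.0 in the joint list, 59 in replicate 1 and 43.1 in replicate 2, and it passed in replicate 1 alone.

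The fourth of that kind belonged by distance to another gene. The summit near the H3.3-like gene his-74 (chromosome V, 12659620) was 710 bp from the his-74 start and 84 bp past its end, and it fell on a start of the neighbouring gene ccch-3. Its signal was 76.0 in the joint list, 43.2 in replicate 1 and 50.8 in replicate 2, and it passed in neither replicate's thresholded list. his-74 was the 1 gene of the 5 H3.3 and H3.3-like genes with a conservative peak.

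In the H3/H4 pair his-60/his-59 peaks lay on and beside both genes, and not in the spacer printed above. A summit 69 bp inside the coding exon of his-60 had 99.6 in the joint list, 48.7 in replicate 1 and 47.5 in replicate 2. A summit in the coding exon of his-59, 294 bp from its start, had 89.6 in the joint list, 54.8 in replicate 1 and 39.2 in replicate 2. Another summit, 104 bp past the end of his-59, had 21.8 in the joint list and rested on the same replicate peaks as the one before. All 3 passed in replicate 1 alone, and none was in the other thresholded set.

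At the H2A/H2B pair his-58/his-57 the 2 summits lay in an annotated intron of his-57, 452 and 653 bp from its start. Their signals were 111 and 17.3 in the joint list, and both rested on the same replicate peaks, of 68.4 in replicate 1 and 45.5 in replicate 2. They passed in replicate 1 alone. The 12 joint summits therefore rest on 10 distinct pairs of replicate peaks.

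**Figure D2:**
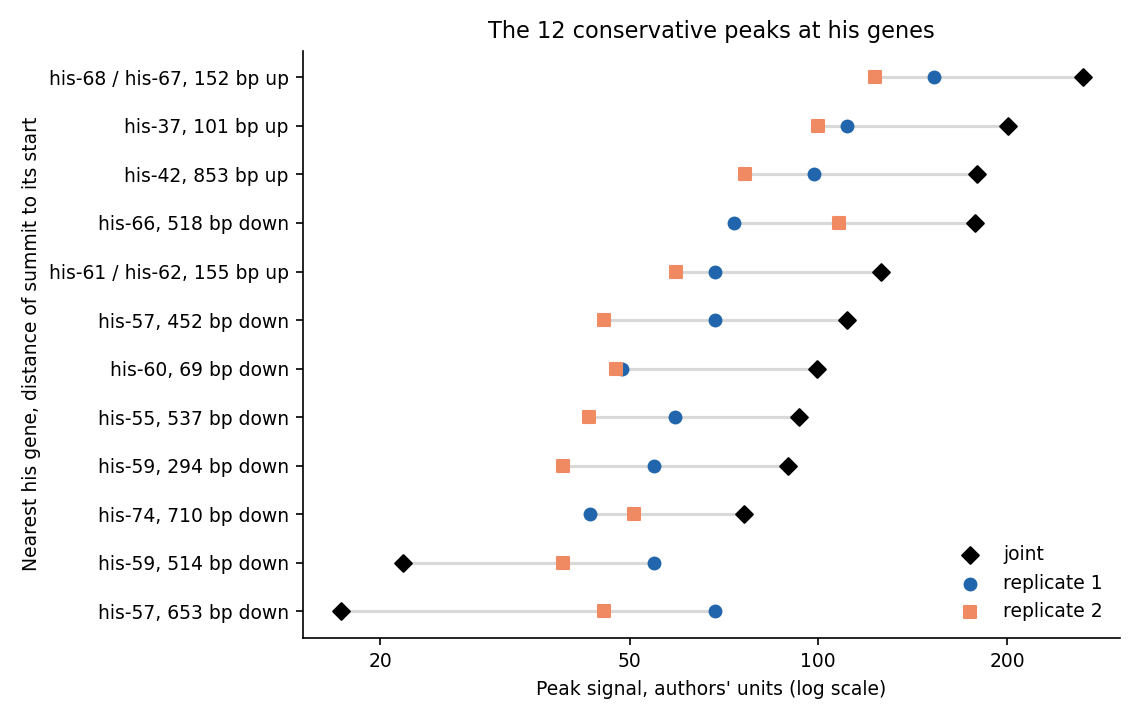
Signal of the 12 conservative peaks at his genes on a log scale, in the authors' units, in the joint list (diamond), replicate 1 (circle) and replicate 2 (square), each named by its nearest his gene and the distance from that gene's start, up or down meaning upstream or downstream. Signals are not scaled between lists, and the 2 lowest diamonds share the replicate values of a higher peak of the same gene.

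Over the 12 peaks the median log2 ratio of replicate 2 to replicate 1 signal was -0.34 (-0.59 to 0.56), against 0.03 over all nuclear conservative peaks with both values. Counting each pair of replicate peaks once, 8 of the 10 were lower in replicate 2 and 2 were higher, where 46.2% of all conservative pairs were lower, and the median was -0.26, against 0.04 over 1573 pairs of all conservative peaks. Of the 10 pairs, 4 passed in replicate 1's thresholded list alone, 5 passed in both and 1 in neither. Over all conservative pairs 9.79% passed in replicate 1 alone and 55.4% in both. With a single pair of replicates, a difference between them has no error of its own, and no test was made.

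**Figure D3:**
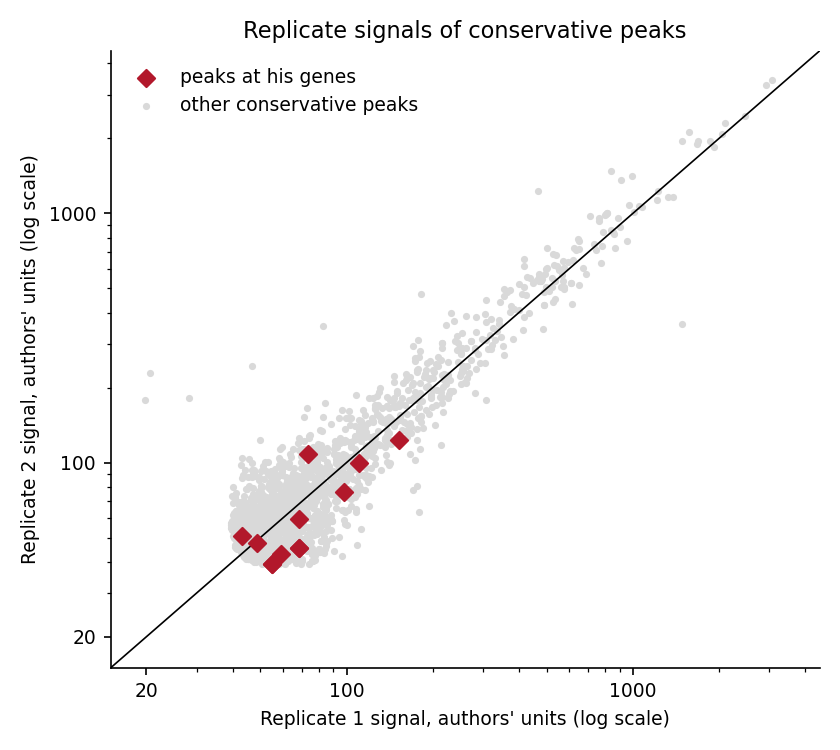
Signal of each nuclear conservative peak in replicate 1 and in replicate 2, both on log scales in the authors' units, with the 12 peaks at his genes as red diamonds (10 distinct points) and the line of equal values. The diamonds lie in the lower part of the cloud, at 153 or less in replicate 1, and 8 of the 10 points are below the line.

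The other thresholded set added 5 summits and 5 genes. Its summit in the spacer of the H3/H4 pair his-63/his-64, printed above, had a signal of 96.5, and a second in the coding exon of his-64 had 23.5. The first lay inside the non-coding RNA gene F22B3.19. In the joint ranked list their global IDR was 0.0101 and 0.0100, just outside the conservative set, where the last his peaks inside were those of his-59, at 0.00915 and 0.00913.

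A summit of 97.6 lay 239 bp past the end of the H2A gene his-47, in the pair his-47/his-48, with a global IDR of 0.0138 in the joint ranked list. A summit of 85.2 lay in the coding exon of his-62, 6 bp before its end. Its global IDR in the joint ranked list was 0.385, far from the threshold. In the other thresholded set itself, the authors' scaled IDR score of this summit was 1000, the highest value. Replicate 1's thresholded list also held a peak in that exon, with a signal of 61.7. The summit of 89.1 near the H2A gene his-35 had a global IDR of 0.0173. It was 854 bp from the his-35 start and 208 bp from that of mdf-1, a spindle checkpoint gene, which was the nearer. With the limit at 2000 bp, 18 his genes had a conservative peak, against 9.96% of all protein-coding genes. The nearest conservative summit to his-72 was 1167 bp from a start, with a signal of 96.8, and the farthest one inside was that of his-42 at 853 bp.

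Of the 5 H3.3 and H3.3-like genes, which supply H3 outside replication, 2 had a joint ranked peak. Of the 16 other H3 genes 9 had one, and 34.4% of all protein-coding genes did. These counts are too few to set the H3.3 genes apart. his-72 had ranked peaks only. The highest in the joint list, 58.6, lay 888 bp from a his-72 start and nearer, at 97 bp, to a start of Y75B8A.33, and the peaks there had 28.8 in replicate 1 and 23.5 in replicate 2. Replicate 2's highest, 36.8, was another peak, 162 bp upstream of a his-72 start. Besides the summit on the ccch-3 start, his-74 had a ranked peak 185 bp upstream of its own start. That peak had 40.8 in the joint list, with a global IDR of 0.461, and 25.9 in replicate 1. Replicate 2's ranked list had one of 21.9, 125 bp upstream. his-70 had 1 peak of 28.4, in replicate 1's ranked list alone, and his-69 and his-71 had none in any list. The H1 gene his-24 likewise had ranked peaks only. The joint summit lay 44 bp inside the gene, its signal was 61 and its global IDR 0.0855. Replicate 1's peak of 32.2 had its summit 43 bp inside the gene, and replicate 2's of 31.5 had it 31 bp upstream. Each of these summits also lay inside the non-coding RNA gene M163.19, so distance does not assign them to his-24 alone.

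The 31 divergent pairs were then compared with other divergent pairs. A conservative summit lay in the spacer of 2 of 31 his pairs, 6.45% (1.79 to 20.7). The share was 14.5% of 1692 divergent pairs of protein-coding genes with starts at most 1000 bp apart, his pairs included, and 12.6% of the 705 with at most 400 bp between starts. In the joint ranked list 4 of 31 his pairs had a summit in the spacer, 12.9% (5.13 to 28.9), against 30.9% of all pairs and 27.2% of the closer ones. Taken over all 31, the his pairs were therefore not above other pairs in the share with a summit between the starts. Of the 12 summits at his genes, 8 lay in a gene or past its end. The interval of the conservative share spans both backgrounds, and that of the joint ranked share spans the closer pairs alone. These shares include 16 his spacers that had an identical copy elsewhere and held no summit in any list. Of the other 15 spacers, 2 held a conservative summit and 4 a joint ranked one. Some of these 15 also consisted mostly of 31-mers that occur more than once in the genome. They were his-58/his-57 (100%), his-17/his-18 (99.0%), and his-46/his-45 and his-55/his-56 (86.4% each). None of them held a summit in any list. The share of his pairs without repeated spacers was not computed, so its standing beside other pairs is not known.

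**Figure D4:**
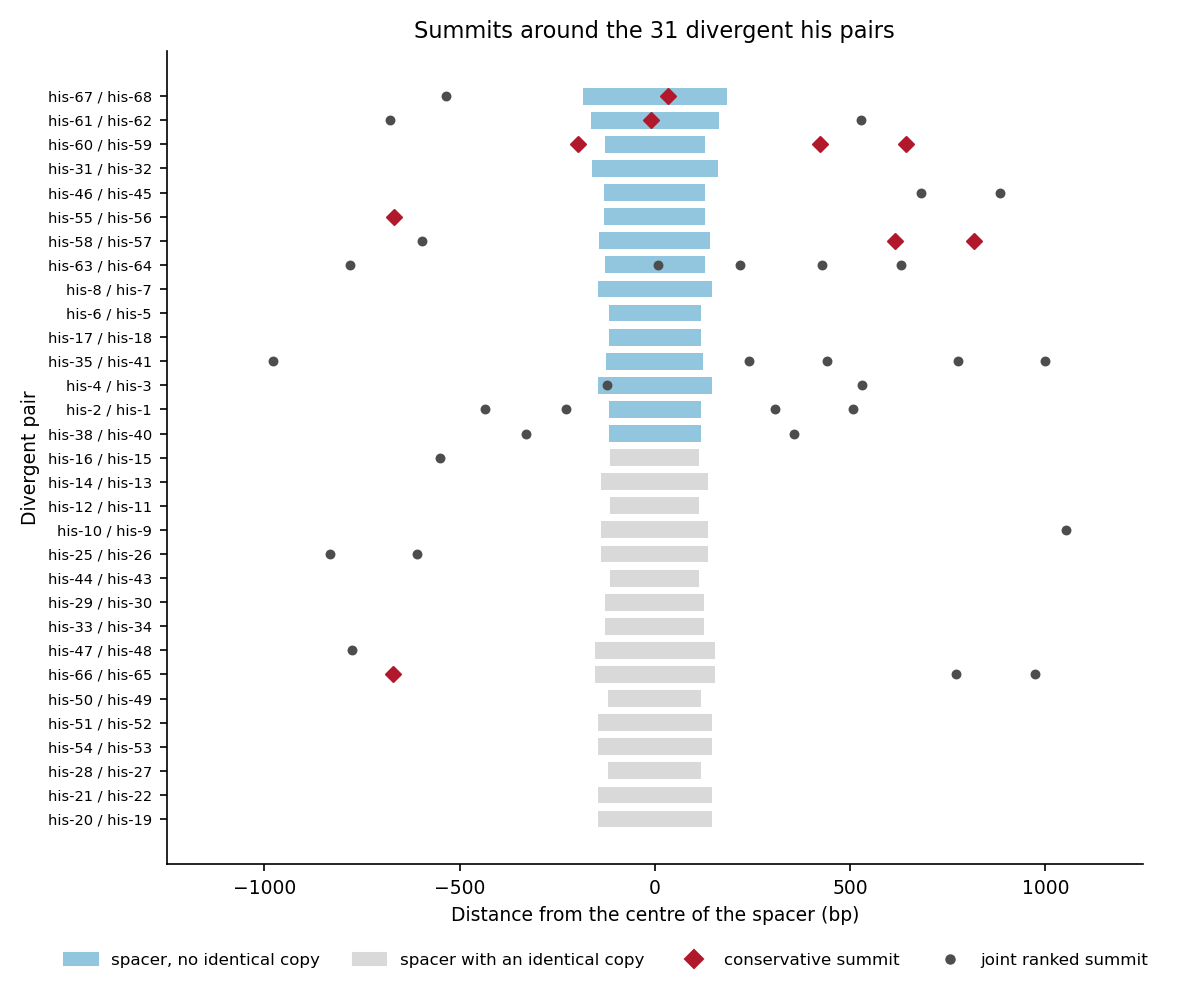
Summits around the 31 divergent his pairs, by distance in bp from the centre of the spacer, with conservative summits as red diamonds and joint ranked summits as grey points. Bars are the spacers, blue without an identical copy (15 pairs) and grey with one (16 pairs). No summit lies on a grey bar, and 2 diamonds lie on blue ones.

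Many his genes are near-identical copies, which bears on where reads can be placed. Within 1000 bp of a start, the median share of 31-mers that occur more than once in the genome was 70.6% over his genes (0.1000 to 100) and 0.0500% over all protein-coding genes. The share was over 50% at 41 of 72 his genes, 56.9%, and at 2.68% of all protein-coding genes. The sources used here give neither the read length nor the treatment of reads that match several places.

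A conservative peak lay near 7 of the 41 his genes over 50% repeated, against 4.10% of all such protein-coding genes, and near 8 of the 31 at or under 50%, against 7.36%. Of the 29 his genes with no peak in any list, 25 had over 50% of 31-mers repeated, and the other 4 were his-69, his-71 and the short genes his-39 and his-73. All 16 his genes whose surroundings were repeated in full had no peak in any list. Over all protein-coding genes with more than 90% of 31-mers repeated, 1 of 232 had a conservative peak. Low coverage at repeated sequence and lack of binding there cannot be told apart from the peak lists.

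The same held for the spacers. Of the 31, 16 had an identical copy elsewhere, so that there were 21 distinct spacer sequences. None of these 16 held a summit in any list. Of the 15 without an identical copy, 2 held a conservative summit, 3 one of the other thresholded set and 4 one of the joint ranked list. These 15 include the mostly repeated spacers named above, which held none. The his-66/his-65 spacer is an identical copy of the his-47/his-48 spacer. At the first pair the peak lay 147 bp past the end of the H2B gene his-66. At the second it lay 239 bp past the end of the H2A gene his-47. The 2 peaks were thus beside genes of different type, and 40.6% and 0% of their 31-mers were repeated. Over the 12 peaks themselves the median was 15.4% of 31-mers repeated, with none over 50%. Over all nuclear conservative peaks the median was 0, with 8.07% of peaks over 50%.

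By cluster, the largest, 13 genes from his-16 to his-42 on chromosome II, had a median of 90% of 31-mers repeated and 1 gene with a conservative peak, his-42 at its edge. The clusters of 6 genes from his-50 to his-53 and 8 genes from his-28 to his-18, both on chromosome V, had a median of 100% and no peak in any list. All 4 genes had a conservative peak in the cluster from his-61 to his-59, at 15.6% repeated, and in that from his-55 to his-57, at 79.6%. The cluster of 4 genes from his-4 to his-1, at 23.4%, had ranked peaks only.

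**Figure D5:**
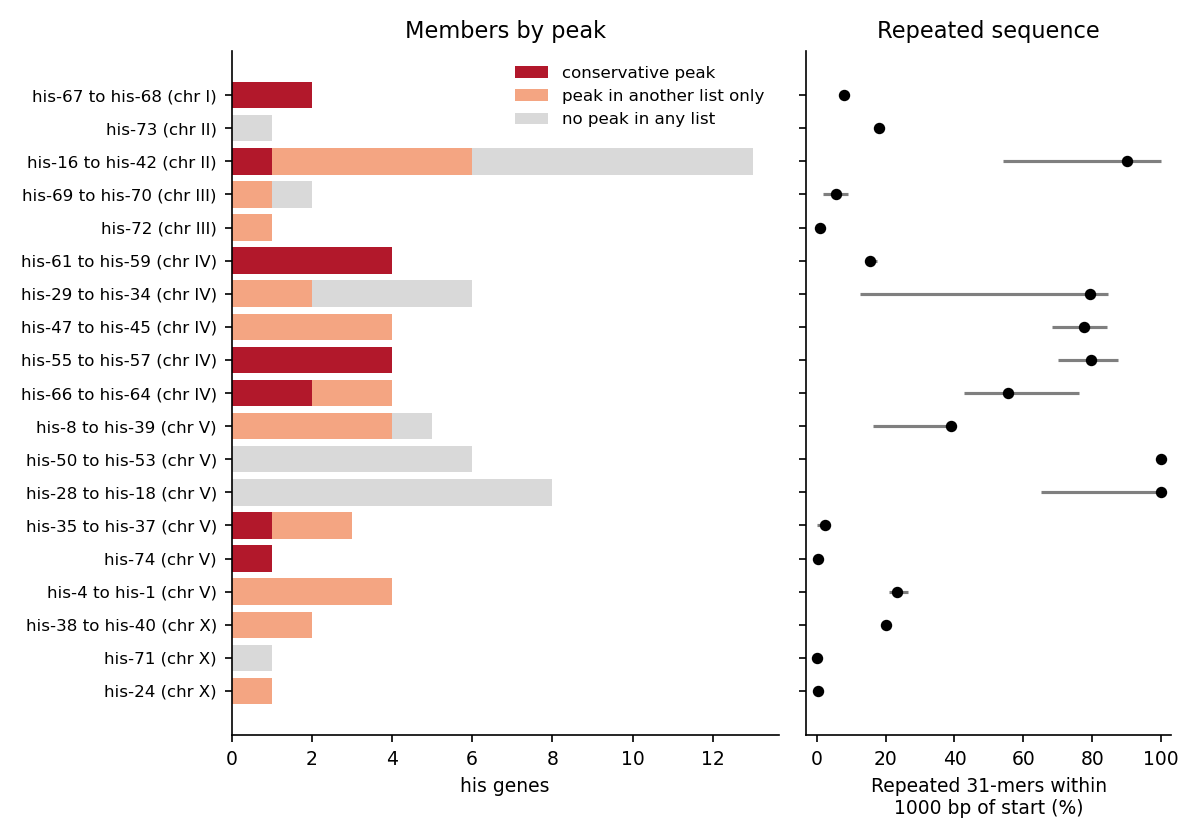
Left, number of his genes in each of the 19 clusters or single loci with a conservative peak (red), a peak in another list only (orange) or no peak (grey). Right, the percent of 31-mers within 1000 bp of a start that are repeated in the genome, as the median (point) and range (line) over the genes of the cluster. The 2 clusters on chromosome V without any peak have medians of 100%.

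The letters of the promoters were counted in 300 bp windows, from 250 bp before to 50 bp after the outermost start. For 65 of the 72 his genes that start was the coding start. TAATTA, a core to which many homeodomains bind in vitro, was in 1 of 72 his promoters, 1.39%, against 15.5% of all protein-coding promoters, and in none of the 12 windows of 50 bases on either side of a summit, against 1.78% of all nuclear conservative summits. TATAAA, the letters of the TATA box, was in 47 his promoters, 65.3% against 38.0%, counted on either strand and anywhere in the window. CCAAT was in 39, 54.2% against 45.5%, and GAGAG was in 49, 68.1% against 39.9%. A match is a description and not a site. The windows of paired genes overlap and some spacers are identical, so his promoters are not separate observations. At the 12 summits TATAAA was in 1, CCAAT in 2 and GAGAG in 3, or 8.33%, 16.7% and 25%, against 4.81%, 16.9% and 27.2% of all conservative summits.

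A further 9 patterns were read from the printed windows by eye and counted, so their shares describe the genes they were taken from and are no independent evidence. CTCCNCC was in 66 of 72 his promoters, 91.7%, against 13.7% of all, and in all 31 spacers. TGTCCNCNCAG was in 46, 63.9%, against 0.371%, and in 22 spacers. Of the other 7, CTCCGCC was in 44 of the 72 promoters, against 4.73% of all, GTGTCC in 59, against 6.25%, and CACACCG in 28, against 1.55%. The last 4 were longer variants of the 2 described. They were in 28, 35, 22 and 35 of the 72, against 0.165%, 3.56%, 0.466% and 1.36% of all promoters in the same order. Several overlap one another, and identical spacers are not separate observations.

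CTCCNCC was in all spacers, with or without a summit. At the 12 summits it was in 1 window, 8.33%, against 9.55% of all conservative summits. TGTCCNCNCAG was in 2 of the 12 windows, 16.7%, those of his-67/his-68 and his-37, against 4 of 1685 conservative summits in all, 0.237%. It was in all 5 spacers with a summit in any list and in 17 of the 26 without one. It was read in part from the his-37 and his-63/his-64 windows, so these counts support nothing about binding. The 6 promoters without CTCCNCC were those of his-39, his-42, his-69, his-70, his-73 and his-74. TGTCCNCNCAG was absent from 26 his promoters, those of the H3.3 and H3.3-like genes among them.

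Genes that handle histones or encode histone variants outside the his family had peaks of up to 1380, against up to 264 at his genes. Of 27 such genes, 7 had a conservative peak, 25.9%, against the 7.27% of all protein-coding genes, and 8 had one in the other thresholded set. Among chaperones, chaf-2, a subunit of the CAF-1 complex, had 1380 in the joint list, 648 in replicate 1 and 718 in replicate 2. unc-85, an Asf1 homologue, had 1196, 571 and 647 in the same order. lin-53, an RbAp46/48 homologue, had 388, 163 and 221, and nasp-2, a NASP homologue, had 183, 82.8 and 104.

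Of the histone variants in that list, hcp-3, the centromeric H3, had 311 in the joint list, 148 in replicate 1 and 167 in replicate 2. htz-1, the H2A.Z gene, had 241, 107 and 139.8 in the same order, and the start of wapl-1 was nearer to the summit, at 168 bp. The acetyltransferase gene hat-1 had 367, 180.2 and 189.7. All 7 values were higher in replicate 2, where 46.2% of all conservative pairs of replicate peaks were lower in it. The other thresholded set added hmg-3, a homologue of a FACT subunit, with 95.4. No gene of the H1 family hil-1 to hil-8 had a thresholded peak, and cdl-1 had ranked peaks of 61.4 in the joint list and 39.9 in replicate 1.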

How the data were processed

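Whole animals were profiled by ChIP-seq in 2 biological replicates, with chromatin sheared by sonication to 200 to 800 bp, per the labels. Reads were mapped to ce11, per the labels. The sources used here name no aligner, peak caller or read length, and read counts were not used here, so depth is unknown. The signal of each peak is the authors' enrichment value. It has no unit, and lists were not put on 1 scale. The score is the authors' deposited scaled IDR score, at most 1000. The ranked lists carry the authors' deposited −log10 of the global IDR, limited to 5. Mitochondrial peaks (22 conservative ones) were not counted.

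Genes and starts were from Ensembl release 115 on WBcel235. Ensembl gave the 72 genes 50 distinct names, so names were taken from RefSeq by gene identifier, which changed 22. A replicate's value for a joint peak is that of the peak of its own ranked list that the joint list records. The histone supply list held the 8 hil genes, histone variants, chaperones and a histone acetyltransferase. Every his gene with a thresholded peak was named, and of the supply list those with a conservative peak, with hmg-3, the hil genes and cdl-1 named after their values were seen. The members and lists were chosen with earlier results of these data known. Shares have 95% Wilson intervals. No test was made. Alternatives were other lists, windows of 250, 500 and 2000 bp, a global IDR of at most 0.001, other ways of assigning peaks, and, chosen after seeing the data, 75-mers, replicate peaks counted once, and the 9 added patterns. Counting of summits was tested on simulated data. Tools were Python 3.11.15, numpy 2.4.6 and pandas 2.3.3.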

Additional observations from a re-analysis of the deposited data

How the results depend on the processing

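The number of his genes with a conservative peak, 15 of 72, was 18 in the other thresholded set and with a limit of 2000 bp, and 15 by overlap of the gene or the 1000 bp before it and without peaks over 50% repeated. It ranged from 8 to 14 in the thresholded lists that leave out 1 replicate, with 8 in replicate 2's list. It was 8 at a global IDR of at most 0.001, 8 with a limit of 500 bp, 6 with 250 bp and 9 when each peak counted only for the nearest start. The share of all protein-coding genes was 4.97%, 5.54%, 3.55% and 5.24% under those 4 settings. The 12 distinct peaks ranged from 5 to 11 with 1 replicate left out, and were 5 at the stricter IDR, 6 within 500 bp and 4 within 250 bp. The 31 genes with a ranked peak in both replicates were 21 within 500 bp and 13 within 250 bp, against 17.9% and 10.3% of all protein-coding genes. The repeated share was 66.1% with 75-mers, and 15.4% over the peaks in place of the start windows. The count of supply genes was 7 or 8 in the 4 thresholded lists and 6 within 500 bp. The causes of these changes were not tested, beyond the smaller windows and shorter lists themselves. No paired analysis was possible because there is 1 group and no test between groups. Signal in peak lists without read counts limits the precision of every value.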
